A study of Stylophora pistillata with 6 samples.

Results

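WHITE (Spis13464) and MDR1 (Spis5236.t1) are 2 of the 25769 gene models counted in the reef-building coral *Stylophora pistillata*, and both are named as ATP-binding cassette (ABC) transporters. They were chosen from the study's supplementary list of gene models that differed between day and night, so the day and night values of WHITE and MDR1 below are a description, without a test. The names are those of the best sequence match in another organism. RNA was sequenced in 3 day and 3 night libraries of coral microcolonies, harvested when 1 h of the light or dark phase was left in a 12 h:12 h cycle. Both groups were branch tips cut from the same syngenic, long-term cultured parent colonies, left 10 days to recover, and kept at 25 °C, a salinity of 38 and 175 µmol photons per square metre and second, so the libraries share 1 genetic background. The tissue held all coral cell types together with the symbiotic algae, and the sources used here give no names from which tissue markers could be checked.

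ABC transporters are membrane proteins that use the energy of ATP hydrolysis to move substrates across membranes. In Drosophila, White pairs with Brown or Scarlet to carry guanine or tryptophan-derived pigment precursors into the pigment granules of the eye. Human MDR1, also called P-glycoprotein, sits in the plasma membrane and exports a wide range of lipophilic compounds, among them drugs and toxins. These roles are known from other animals and were not measured in the coral.

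MDR1 is the member for which the study designed a quantitative PCR assay, and its amplicon is shown because it is the stretch of this transcript known base by base here. The amplicon has 106 bases and a GC content of 46.2%, and capitals mark the primer sites, 22 bases at the 5′ end and 21 bases at the 3′ end.
MDR1 amplicon: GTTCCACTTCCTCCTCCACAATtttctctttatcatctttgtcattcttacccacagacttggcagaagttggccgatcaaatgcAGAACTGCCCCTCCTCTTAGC
MDR1 reverse primer: GCTAAGAGGAGGGGCAGTTCT
The reverse primer is the reverse complement of the last stretch in capitals. On each strand 2 of the 3 reading frames are open over the whole amplicon. In independent samples the study's assay also found MDR1 lower by day, but by less than the fold change it required. MDR1 was therefore not among the study's candidate genes. The chromosome position of both genes and the sequence of WHITE were not analysed here.

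WHITE RNA was lower in every day library than in any night library. It had 99, 27 and 145 reads in day replicates 1, 2 and 3, against 347, 175 and 239 reads in night replicates 1, 2 and 3. CPM gives a gene model's reads relative to all reads mapped to coral gene models in its library, after trimmed-mean scaling. WHITE had 35.4, 17.3 and 21.3 CPM in day libraries, against 112, 91.4 and 93.6 CPM in night libraries. Day replicate 1 stood above the other day libraries, and the night libraries lay close together. The mean was 24.7 ± 9.51 CPM by day and 99.1 ± 11.5 CPM by night (SD, n = 3 each). The log2 fold change, day minus night, was −1.99 (SE 0.22), a level 3.98-fold higher in night libraries. The highest day library and the lowest night library were 2.58-fold apart, and the most distant pair 6.49-fold. In whole tissue, fewer cells with the transcript and less transcript per cell cannot be told apart.

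MDR1 RNA was also lower in each day library than in each night library, by a smaller factor. The libraries held 521, 234 and 1559 MDR1 reads in day replicates 1, 2 and 3, against 1245, 764 and 957 reads in night replicates 1, 2 and 3. These were 186, 150.0 and 229 CPM in day libraries, against 403, 399 and 375 CPM in night libraries. The day libraries ranged widely and the night libraries were nearly level. The mean was 189 ± 39.7 CPM by day and 392 ± 15.3 CPM by night (SD, n = 3 each). The log2 fold change was −1.05 (SE 0.21), a level 2.07-fold higher in night libraries. The gap between the highest day library and the lowest night library was 1.63-fold. Day replicate 3, with the most MDR1 by day, also had the most reads mapped to coral gene models.

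**Figure D1:**
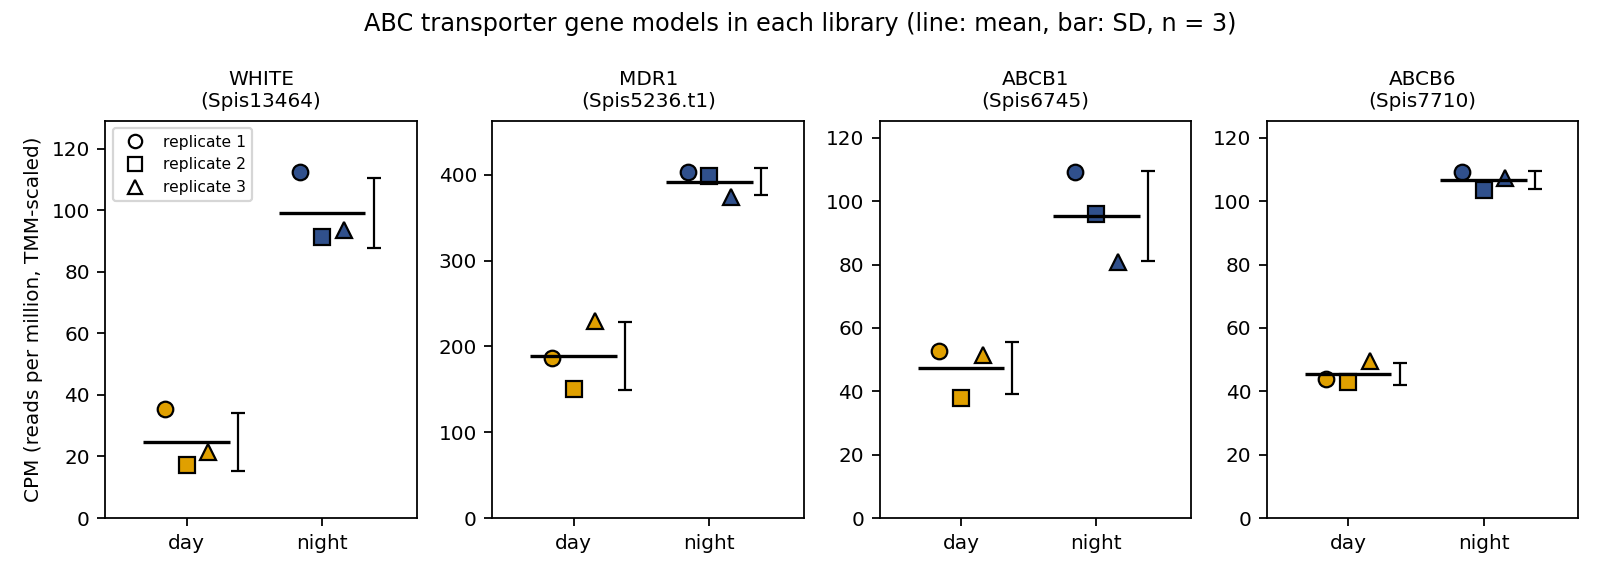
Level of WHITE, MDR1 and the other ABC transporters named ABCB1 and ABCB6 in each library, in CPM on linear axes that start at 0, with day left of night; symbols are replicates and bars are the group mean ± SD (n = 3 each). In all 4 panels every day library lies below every night library, and day replicate 2 is the lowest day library.

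A read was found in 24180 gene models, of which 161 (0.666%) had an adjusted p under 0.05 by edgeR's quasi-likelihood test with Benjamini-Hochberg adjustment. Of these, 99 (0.409% of those tested) were lower by day, WHITE and MDR1 among them, and 62 (0.256%) were higher. Since this contrast chose the members, nothing is read from that. MDR1 was no longer among those lower by day without day replicate 2 or without night replicate 2, where its log2 fold change was −0.91 and −1.04. The groups did not overlap for 5.04% of gene models in the direction of lower by day, and for 5.05% in the direction of higher by day. Among the 17473 gene models averaging 10 or more reads a library, 28 had a more negative log2 fold change than WHITE, and 152 a more negative one than MDR1. The median log2 fold change of those gene models was 0.01.

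Relative to their group means, WHITE and MDR1 varied more between day than between night libraries. WHITE's coefficient of variation was 38.5% over the day libraries and 11.6% over the night libraries, where the counting error of a single library was 8.30% to 19.2% by day and 5.37% to 7.56% by night. The thinnest value, 27 reads in day replicate 2, had an exact 95% Poisson interval of 11.4 to 25.2 CPM, which stayed below the interval of 28.8 to 43.1 CPM in day replicate 1. For MDR1 the coefficient of variation was 21.1% by day and 3.89% by night, with counting errors of 2.53% to 6.54% and of 2.83% to 3.62%. The coefficient of variation of all 4 ABC transporters was larger by day, for ABCB1 by little (17.4% against 14.9%). The same held for 53.5% of the gene models averaging 10 or more reads. All 4 ABC transporters were also lowest by day in replicate 2, the lowest day library for 36.6% of those gene models. That library had the fewest reads mapped to coral gene models of the 6. The part of this read depth in these values was not tested.

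Paired by replicate number, WHITE had log2 differences of −1.66, −2.39 and −2.12 in replicates 1, 2 and 3, and MDR1 of −1.11, −1.41 and −0.71. Both were furthest apart in replicate 2. The smallest difference fell in replicate 1 for WHITE and in replicate 3 for MDR1.

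The ratio of WHITE to MDR1 reads is free of library scaling and compares both genes inside each library. There were 19.0, 11.5 and 9.30 WHITE reads per 100 MDR1 reads in day replicates 1, 2 and 3, against 27.9, 22.9 and 25.0 in night replicates 1, 2 and 3. The ratio was lower in each day library than in each night library, closest between day replicate 1 and night replicate 2. Its mean was 13.3 ± 5.08 by day and 25.3 ± 2.49 by night (SD, n = 3 each). On the log2 scale the day ratio averaged −2.98 ± 0.53 and the night ratio −1.99 ± 0.14, a difference of −0.99, which ranged from −1.28 to −0.77 when each library was left out in turn. The counting error of the ratio was 8.68% to 20.3% in single day libraries and 6.07% to 8.38% in single night libraries. WHITE and MDR1 thus differed between day and night by unequal factors in these libraries, a comparison on the contrast that chose both and so without a test.

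**Figure D2:**
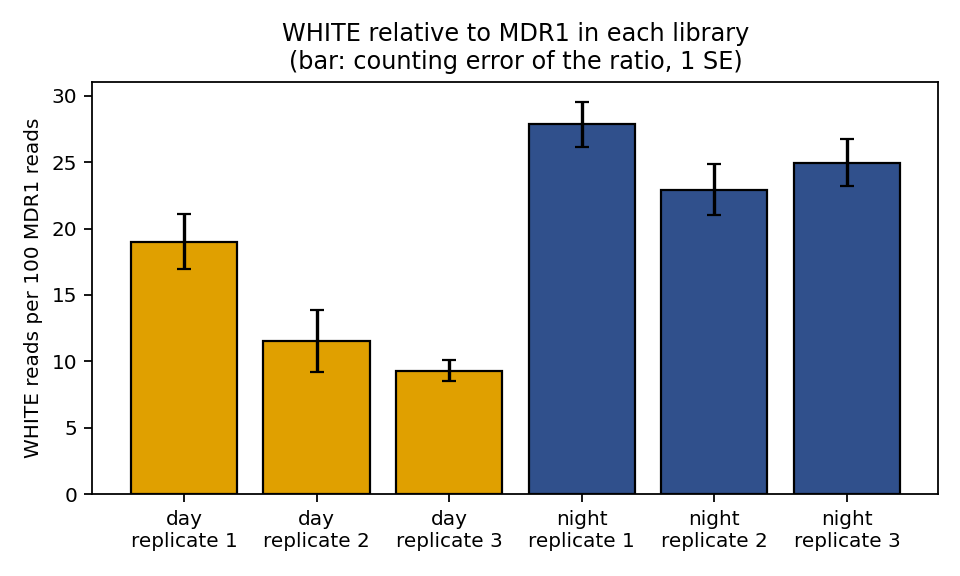
Reads of WHITE per 100 reads of MDR1, drawn as a bar for each library, with day left of night. Error bars are the counting error of the ratio in that library (standard error), not the spread between replicates. The day libraries lie between 9.30 and 19.0, all below the night libraries, which lie between 22.9 and 27.9.

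The study's list held 2 further ABC transporters. ABCB1 (Spis6745) is named after an ABC transporter of the amoeba *Dictyostelium discoideum*, and the human gene of P-glycoprotein carries the same symbol, although here it is a gene model separate from MDR1. ABCB1 had 147, 59 and 350 reads in day replicates 1, 2 and 3, against 337, 184 and 206 reads in night replicates 1, 2 and 3. Its level was 47.3 ± 8.23 CPM by day and 95.3 ± 14.2 CPM by night (SD, n = 3 each), with no overlap. The log2 fold change was −0.99 (SE 0.19), and the adjusted p was 0.0048 in edgeR's quasi-likelihood test. This call was lost without night replicate 1, with a log2 fold change of −0.88 and an adjusted p of 0.076, and with limma-voom (adjusted p = 0.059).

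ABCB6 (Spis7710), named after a mitochondrial ABC transporter of *Xenopus* whose mammalian relatives are linked to porphyrin transport, was the steadiest of the 4. It had 123, 67 and 336 reads in day replicates 1, 2 and 3, against 337, 198 and 274 reads in night replicates 1, 2 and 3. Its level was 45.5 ± 3.48 CPM by day and 106.6 ± 2.90 CPM by night (SD, n = 3 each), and the log2 fold change was −1.22 (SE 0.18, edgeR adjusted p = 0.00012). The coefficient of variation was 7.66% by day and 2.72% by night. By replicate number the log2 difference was −1.31, −1.26 and −1.12 for ABCB6 and −1.05, −1.34 and −0.65 for ABCB1. As with MDR1, replicate 2 held the widest and replicate 3 the narrowest difference of ABCB1. All 4 ABC transporters passed the test lower by day, as did 0.409% of all gene models tested. The median log2 fold change of the 4 was −1.14, against 0.00 over all gene models tested. They stand on a list that the study selected on these libraries, so their direction is no independent evidence.

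The gene models whose levels moved most like each member over the 6 libraries were found by the root mean square difference in mean-centred log2 CPM, among 17472 others averaging 10 or more reads. This is a description of likeness over few libraries that share the contrast. Among the 5 nearest to WHITE were ANPRA (Spis14052), a natriuretic peptide receptor, at 0.213, ABH6A (Spis15791), a monoacylglycerol lipase, at 0.218, the unnamed Spis10826 at 0.238, and UXS1 (Spis2864), which makes UDP-xylose, at 0.244. ABH6A had 12.3 ± 2.13 CPM by day and 53.0 ± 7.0 CPM by night (SD, n = 3 each). The log2 fold changes of the 3 named gene models ran from −2.32 to −2.12.

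MDR1 had a different set of nearest gene models. They were the unnamed Spis22180 at 0.134, ABCB1 at 0.138, FMO5 (Spis7901), a flavin-containing monooxygenase, at 0.141, the unnamed Spis5822 at 0.144, and CLUH (Spis17290), which binds mRNAs of mitochondrial proteins, at 0.145. ABCB6 came next, in place 6, at 0.149. Spis22180 and Spis5822 did not pass edgeR's test (adjusted p = 0.92 and 0.76), with log2 fold changes of −0.97 (SE 0.46) and −0.76 (SE 0.31). CLUH had 82.7 ± 23.3 CPM by day and 155.7 ± 18.9 CPM by night (SD, n = 3 each, edgeR adjusted p = 0.024). WHITE and MDR1 were 0.583 apart, which put MDR1 in place 64 from WHITE, behind ABCB6 in place 49 and ABCB1 in place 59, and put WHITE in place 6229 from MDR1.

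**Figure D3:**
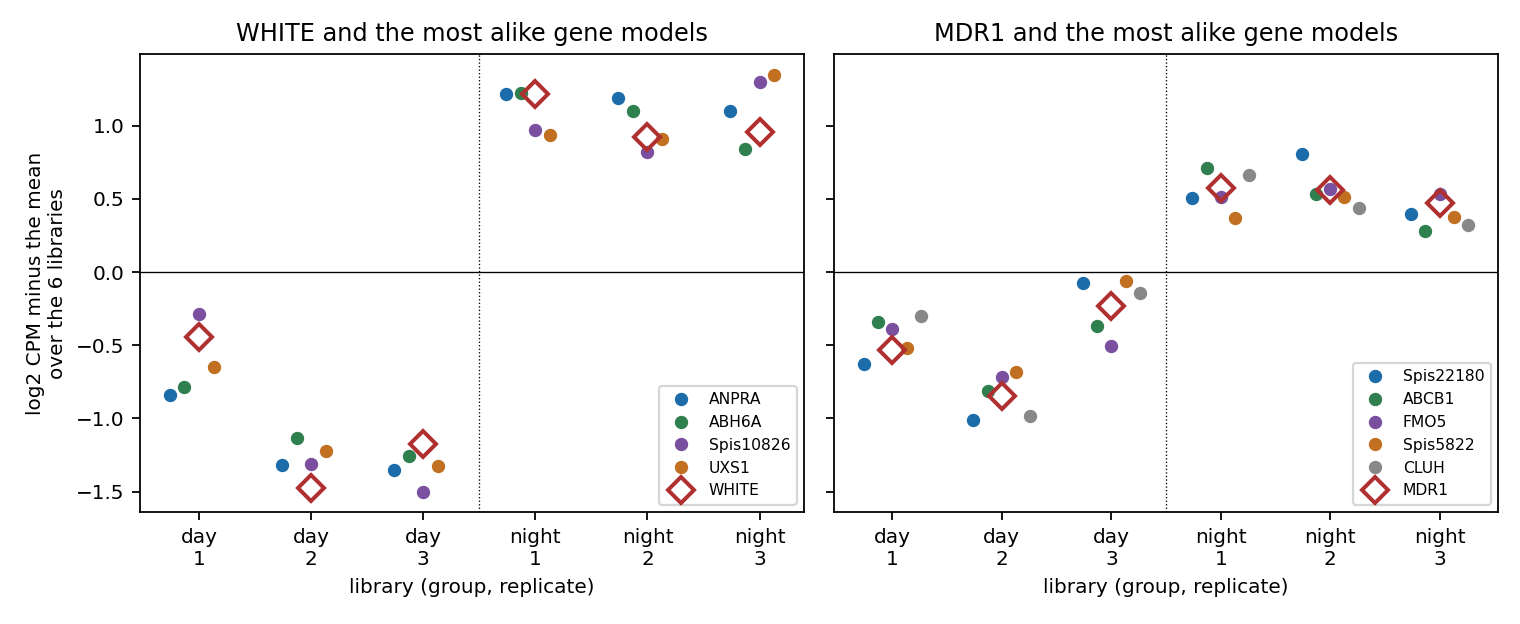
Mean-centred log2 CPM of WHITE (left panel) and MDR1 (right panel), drawn as open diamonds, and of the most alike gene models of each given in the text, drawn as filled circles set side by side, in the 6 libraries, with day left of night. The levels lie below the mean in all day libraries and above it in all night libraries, with a wider step for WHITE than for MDR1.

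Of the 11 carriers and channels of other families in the study's list, 9 passed the test lower by day and 1 higher. Their median log2 fold change was −1.28. Over all 24180 gene models tested, 0.409% passed lower by day and 0.256% higher. The study selected its list on these same libraries, so the count is no independent evidence about carriers. MOT12 (Spis17877), a monocarboxylate transporter, had 4, 1 and 6 reads in day replicates 1, 2 and 3, against 33, 25 and 42 reads in night replicates 1, 2 and 3 (log2 fold change −3.69, SE 0.46, edgeR adjusted p = 6e-06). PTR36 (Spis14863) had 5, 0 and 20 reads in day replicates 1, 2 and 3, against 53, 36 and 36 reads in night replicates 1, 2 and 3, a log2 fold change of −3.02 (SE 0.44, edgeR adjusted p = 2e-04). Both rest on few day reads. ORCT (Spis16234), named as an organic cation carrier, had a log2 fold change of −2.32 (SE 0.46), so that it, MOT12 and PTR36 had more negative values than WHITE.

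The other carriers and channels lower by day had less negative log2 fold changes than WHITE. SC5A9 (Spis20327), a sodium-coupled sugar transporter, had 324 ± 33.3 CPM by day and 788 ± 111 CPM by night (log2 fold change −1.28, SE 0.23). In the study's quantitative PCR on independent samples, SC5A9 went the other way, higher by day. SC5A3 (Spis25176), which takes up myo-inositol with sodium, had 71.0 ± 8.28 CPM by day and 187 ± 61.0 CPM by night (−1.40, SE 0.22), and SPIN (Spis17125), a relative of the lysosomal carrier spinster, had 39.9 ± 3.16 CPM by day and 92.7 ± 4.39 CPM by night (−1.22, SE 0.18; SD, n = 3 each). PK2L1 (Spis9527), a cation channel, S52A3 (Spis6332), a riboflavin transporter, and MFRN2 (Spis19230), a mitoferrin that brings iron into mitochondria, had log2 fold changes of −1.70, −1.16 and −0.83. The call of S52A3 held in 6 of 16 alternative analyses, that of PK2L1 in 11 and that of MFRN2 in 12.

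The ammonium transporter RHBGB (Spis12969) rose by day, with 18, 27 and 66 reads in day replicates 1, 2 and 3, against 7, 1 and 6 reads in night replicates 1, 2 and 3 (log2 fold change 2.54, SE 0.49, edgeR adjusted p = 0.0049). NPT2B (Spis12237), a sodium-coupled phosphate transporter, had 299 ± 18.2 CPM by day and 183 ± 17.3 CPM by night (SD, n = 3 each), a log2 fold change of 0.71 that did not pass edgeR's test (adjusted p = 0.13). NPT2B passed in 4 of 16 alternative analyses, among them DESeq2 (adjusted p = 0.011) and edgeR with the replicate number as a block (adjusted p = 0.012). Under DESeq2 with the replicate block the calls of RHBGB, ORCT, S52A3 and PK2L1 were lost, with adjusted p of 0.051 to 0.17.

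The xenobiotic metabolism list holds 5 gene models related to enzymes that in mammals take part in the metabolism of foreign compounds, drugs among them. Of these 5, 4 passed the test lower by day and 1 higher, with a median log2 fold change of −1.05. The shares over all gene models tested were 0.409% lower and 0.256% higher. All 5 come from the study's list, selected on these libraries, so the count is no independent evidence. Both named CP3AB, after a cytochrome P450, went opposite ways. Spis15558.t2 had 86.5 ± 9.38 CPM by day and 31.4 ± 5.09 CPM by night (log2 fold change 1.46, SE 0.20, edgeR adjusted p = 2.6e-05), and Spis10258 had 5.57 ± 1.30 CPM by day and 17.4 ± 7.13 CPM by night (−1.68, SE 0.36, edgeR adjusted p = 0.013; SD, n = 3 each). Reads of related P450 genes could have been divided between gene models in the counting, which was not tested.

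NCPR (Spis12056), the reductase that passes electrons to cytochrome P450s, had 43.6 ± 4.12 CPM by day and 86.3 ± 12.5 CPM by night (log2 fold change −0.98, SE 0.19). FMO5, in place 3 of likeness to MDR1, had 14.6 ± 1.66 CPM by day and 30.7 ± 0.625 CPM by night (−1.05, SE 0.24), and TPMT, a thiopurine methyltransferase, had 8.57 ± 2.16 CPM by day and 22.5 ± 3.24 CPM by night (−1.38, SE 0.29; SD, n = 3 each). The call of FMO5 held in 7 of 16 alternative analyses and that of TPMT in 12. With DESeq2 and the replicate block, TPMT, FMO5 and Spis10258 were not called (adjusted p = 0.065, 0.21 and 0.096).

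In the list of iron and porphyrin handling, 3 of 3 passed the test lower by day, against 0.409% of all gene models tested. The median log2 fold change of these 3 was −1.22. They were ABCB6, MFRN2 and TSPO, the translocator protein, which in mammals binds porphyrins and cholesterol at the outer mitochondrial membrane. TSPO had 62, 37 and 101 reads in day replicates 1, 2 and 3, against 123, 88 and 193 reads in night replicates 1, 2 and 3, with a log2 fold change of −1.45 (SE 0.26, edgeR adjusted p = 0.0032). All of these lists were drawn from gene models that the study called on the same libraries, so the counts are no independent evidence of a direction.

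**Figure D4:**
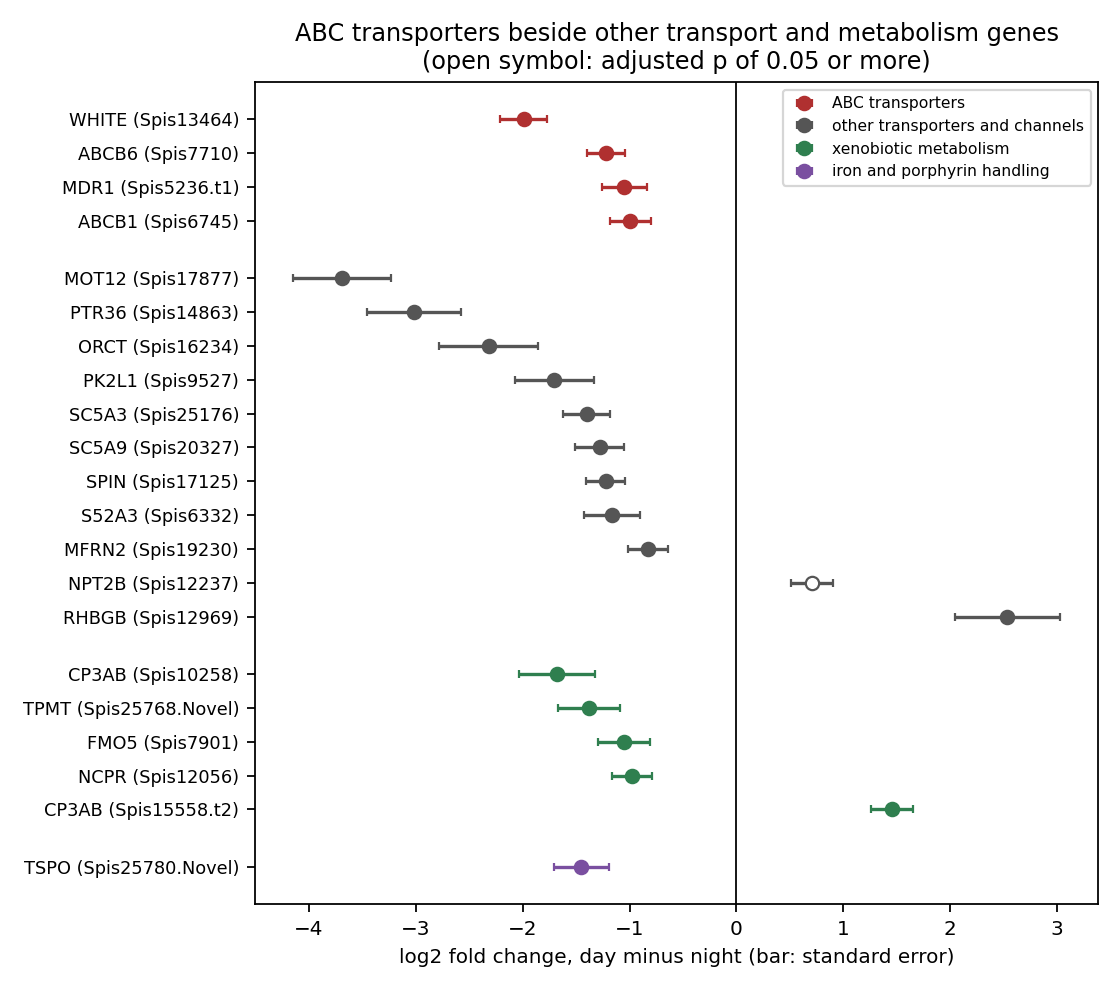
Log2 fold change, day minus night, of each named gene model, grouped and coloured by list, with bars for the standard error; the open circle is NPT2B, which did not pass edgeR's test, and ABCB6 and MFRN2, which stand in more than 1 list, are drawn once. All 4 ABC transporters lie below 0, WHITE furthest at −1.99, while RHBGB, NPT2B and a CP3AB lie above 0.

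Gene models with numbers next to those of the members were not used to choose them. Of the 10 gene models within 5 numbers of WHITE, all were tested and none passed edgeR's test, with 0 at an unadjusted p under 0.05 and 0 with groups that did not overlap. Over all 24180 gene models tested, 0.666% were called, 5.35% had an unadjusted p under 0.05, and the groups did not overlap for 5.04% lower and 5.05% higher by day, so counts of 0 among so few gene models are close to that background. The median log2 fold change of WHITE's neighbours was 0.04. The values ran from −0.84 (SE 0.73) in Spis13465 to 0.82 (SE 1.09) in Spis13467, and Spis13467 had 0, 8 and 5 reads in day libraries and 1, 2 and 3 reads in night libraries. Of the 10 gene models within 5 numbers of MDR1, 9 had a read and were tested, with none called, 0 at an unadjusted p under 0.05 in edgeR and 0 without overlap. Their median was −0.03 and their values ran from −1.75 (SE 1.59) in Spis5239, which had 0, 0 and 1 reads by day and 3, 0 and 0 by night, to 0.18 (SE 0.21) in Spis5232. DESeq2 also called 0 of these, and limma-voom, which kept 7 and 8 of them, called 0, each with 0 at an unadjusted p under 0.05. Whether these numbers follow the order of genes on the chromosomes is not known from the sources used here.

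**Figure D5:**
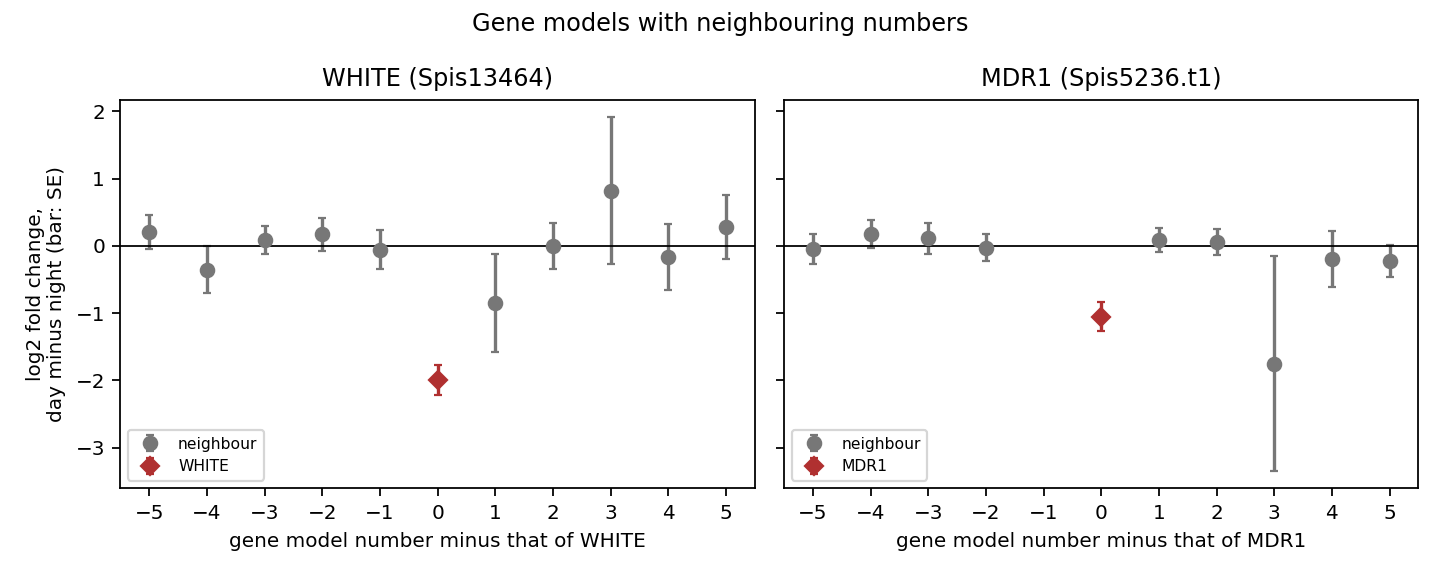
Log2 fold change, day minus night, with its standard error, of WHITE (left panel) and MDR1 (right panel) at number difference 0 and of the gene models whose numbers differ by up to 5. WHITE at −1.99 lies below all 10 of its number neighbours and MDR1 at −1.05 below 8 of 9, the exception being Spis5239, with 4 reads over the 6 libraries and a standard error of 1.59.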

How the data were processed

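Poly(A) RNA of 3 day and 3 night samples was sequenced on a SOLiD instrument. Per the study's methods and the submitters' processing notes, Bowtie (1.2.3) mapped the colorspace reads, single-end, to coding sequences, the longest per gene model. The authors deposited raw counts, whole numbers without normalization or pooling, and the study compared groups with DESeq2. The deposited value of an ID that forms the start of longer IDs (2371 IDs, 9.20%) included the reads of those IDs, so these were subtracted, longest first. No ID starts with that of WHITE or MDR1, whose counts were unchanged. Libraries then held 2833800, 1552480 and 6619275 reads by day and 3062255, 1916270 and 2621328 by night, which equalled the mapped reads stated by the study in 6 of 6 libraries.

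Counts of gene models with at least 1 read (24180 of 25769) were tested with edgeR 4.0.16 in R 4.3.3 (TMM, robust quasi-likelihood F test, two-sided, Benjamini-Hochberg adjustment over all, threshold 0.05), with no covariate. The procedure was tested on simulated data. TMM factors were 0.974 to 1.03. Means and SDs are of TMM-scaled CPM, and a prior of 0.5 reads was added for log2 CPM. Alternatives were other scalings and filters, DESeq2 1.42.0, limma-voom (limma 3.58.1), the replicate block, deposited values, thinning and leaving out each library. Poisson intervals (95%, exact) cover counting error only. PCR copies were not marked by molecular identifiers, so these intervals may be too narrow even for that.

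Same-numbered day and night samples deviated together (correlations of 0.194 to 0.366 over 14262 gene models, against −0.276 to 0.0927 for other pairs). The numbers were therefore taken as pairs in the replicate differences and in the replicate block. The main test was not paired. No source used here ties a number to a parent colony, and p-values measure only how these samples vary, which may be technical. The members and lists were chosen with earlier results of these data known. The named genes are the members, all list genes, the highest and lowest number neighbour of each member, and the 5 most alike gene models of each, of which 1 is not reported here.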

Additional observations from a re-analysis of the deposited data

How the results depend on the processing

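The direction of WHITE, MDR1, ABCB1 and ABCB6 held in all 16 alternatives. Leaving out 1 library at a time gave log2 fold changes of −2.33 to −1.84 for WHITE, −1.21 to −0.91 for MDR1, −1.09 to −0.87 for ABCB1 and −1.29 to −1.19 for ABCB6. The other alternatives stayed inside these ranges for all 4. ABCB1 had −0.98 with limma-voom, no longer past the threshold. The number of gene models called, 161, was 79 with limma-voom, 409 with the replicate block in edgeR and 94 to 233 without 1 library, the lowest values without night replicate 1 (97) or night replicate 2 (94). The replicate block changed no call among the 4 ABC transporters. Limma-voom called 4 of the other carriers and channels instead of 10, 2 of the xenobiotic metabolism genes instead of 5 and 1 of the iron and porphyrin genes instead of 3, and DESeq2 with the replicate block called 2 xenobiotic metabolism genes. Without 1 library these counts were 7 to 10, 2 to 5 and 2 to 3. The causes were not tested. Depth limits what can be read from low counts, among them those of MOT12, PTR36, ORCT, RHBGB and ANPRA, each with at most 20 reads in every library of its lower group.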
